A study of Mus musculus with 2 samples.

Results

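The genes described here encode the enzymes that build cholesterol and fatty acids, together with the proteins that sense sterols and switch these enzymes on. They were chosen by name, with earlier results of these data known: 35 genes, namely 18 sterol synthesis enzymes, 12 enzymes of fatty acid synthesis, elongation, desaturation and activation, and 5 regulators or transporters. The array carried 50 probes with these names among 55681 probes, and 49 of the 50 were bright enough to be kept (well above background with the vector or with ESlncRNA, on each array). All 35 genes had such a probe, so none was lost to the filter on dim probes. The brightest probe stood for each gene.

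The series asked what over-expression of ESlncRNA, a long noncoding RNA, did to the transcripts of erythroid progenitors. Lineage-negative progenitors from fetal livers of C57BL/6 mice at embryonic day 14.5 were transduced either with ESlncRNA or with the vector alone, and GFP-positive cells were sorted in both groups. Each of 2 two-colour arrays compared 1 ESlncRNA sample (Cy5) with 1 vector sample (Cy3), with no dye swap, and a probe that favours 1 dye would therefore shift the same way on each array. The cells were primary and grown under conditions that the labels do not give, and nothing says whether the replicates came from separate livers, so the tests measure the spread between these arrays, which may be technical. The replicates stood apart in some late erythroid markers, more so in the vector samples. Slc4a1, the band 3 anion exchanger, was at 2220 in replicate 1 and 322 in replicate 2 with the vector. With ESlncRNA it was at 1625 and 900. Alas2, the erythroid heme synthesis enzyme, was at 1773 and 584 with the vector and at 1753 and 1000 with ESlncRNA. Values of each array are therefore given beside the means.

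Animal cells make cholesterol from acetyl-CoA through mevalonate, farnesyl diphosphate, squalene and lanosterol, and make palmitate from the same acetyl-CoA through malonyl-CoA. Both routes are switched on by the SREBP transcription factors. These factors are held in the endoplasmic reticulum by SCAP and INSIG while sterols are plentiful, and are cut free in the Golgi when sterols run low. SREBP-2 is known mainly for sterol genes and SREBP-1c for fatty acid genes. Dividing erythroid progenitors need both lipids for new membranes, and late erythroblasts are known to remodel the membrane as they mature.

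Genes of both branches were higher with ESlncRNA, most of them by small factors. Of the 35 genes, 26 rose, 2 fell and 7 did not pass (limma, adjusted p under 0.05 over all probes). Among all 19891 genes tested, 26.3% rose and 36.8% fell. The median of the 35 genes was 0.30 on the log2 scale (0.26 and 0.28 on the arrays of replicates 1 and 2), against -0.03 for all genes tested. Of the 26 genes that rose, 18 also passed as higher under each of the 9 other settings run on both arrays, and 8 missed the threshold under at least 1 of them. How many of all the genes that rose did so was not counted. These settings share the same arrays, and some share the same ratios, so they are not independent checks. A median and a count describe the list and were not tested against other genes. Of the 35 genes, 31 were brighter than the median gene. Among the 9945 genes brighter than the median gene, 29.8% rose, 34.9% fell and the median was -0.01.

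A change of 1.5-fold or more on each array was found for 5 of the 35 genes, all higher, and for 0 lower, where 3.24% of all genes were higher (3.73% of those brighter than the median gene) and 13.5% were lower. The 5 were Scd1, Me1, Pmvk, Lss and Cyp51. In 28 of the 35 genes both ESlncRNA values lay above both vector values, and in 2 both lay below, where 31.6% and 41.6% of all genes did so. The sterol median was 0.31 and the fatty acid median 0.29. The sterol median lay above the fatty acid median by 0.05 on the array of replicate 1 and by 0.01 on that of replicate 2. The middle of each branch was alike in width, with quartiles of 0.18 and 0.47 for sterol and 0.11 and 0.43 for fatty acid enzymes. The sterol enzymes ran from 0.02 to 0.95 and the fatty acid enzymes from -0.53 to 2.29, a wider range that came from Scd1, Me1 and Elovl5. The spread was not tested.

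**Figure D1:**
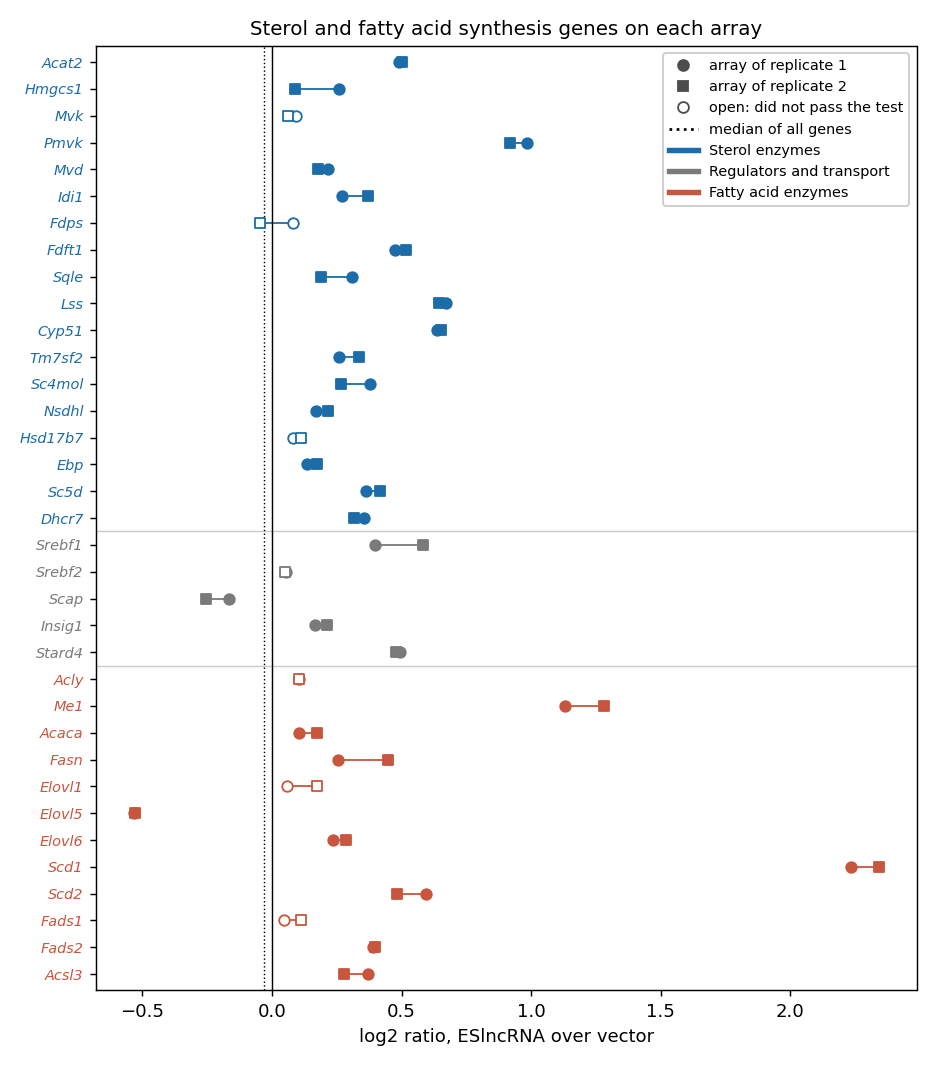
Log2 ratio of ESlncRNA over vector for each of the 35 genes in order of pathway step, with the array of replicate 1 as a circle, the array of replicate 2 as a square, open symbols for genes that did not pass the test and a dotted line at the median of all genes. Scd1 (2.29) and Me1 (1.204) lie farthest to the right, Elovl5 (-0.53) and Scap (-0.21) lie to the left on both arrays, and the arrays of Fdps fall on either side of 0.

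The balance of all genes depended on the normalization, and the members moved with it. Loess gave a share of higher genes among all calls of 41.7%, Feature Extraction's processed signals 59.2% and median centring 77.5%. The median of all genes moved to 0.11 with processed signals and to 0.34 with median centring. Of the 35 genes, 29 rose and 1 fell with the processed signals, where 34.3% of all genes rose and 23.7% fell. With median centring 34 rose and 0 fell, where 62.9% rose and 18.3% fell. Relative to the median of all genes, the sterol median was 0.34 with loess, 0.32 when processed signals were used and 0.66 after median centring. The fatty acid median relative to all genes was 0.32, 0.31 and 0.56 in that order. Above the median of all genes lay 33, 32 and 34 of the 35 genes in that order. Bright genes moved further with median centring: those brighter than the median gene had a median of 0.61. Against these bright genes the sterol median was 0.32 with loess and 0.39 with median centring, the fatty acid median 0.31 and 0.29, and 33 and 29 of the 35 genes lay above.

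**Figure D2:**
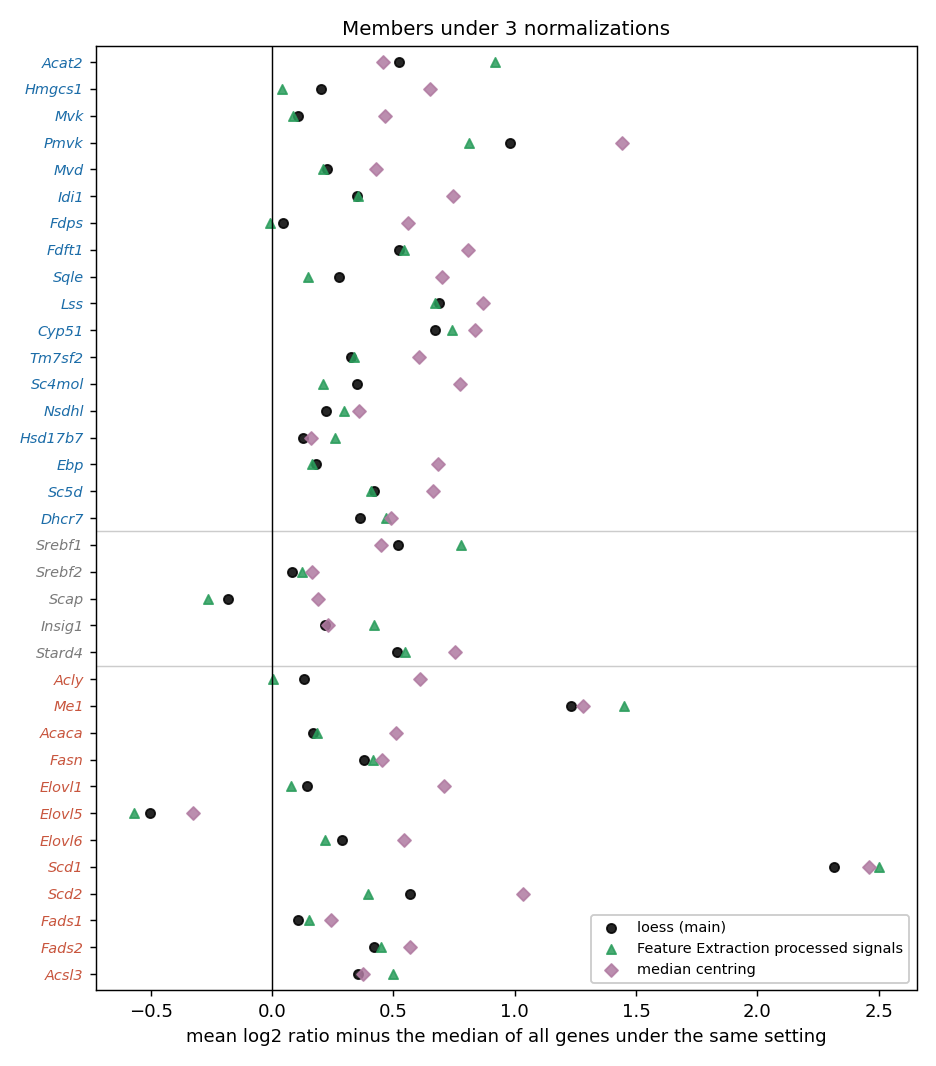
Mean log2 ratio of each gene minus the median of all genes under the same setting, with loess as black circles, Feature Extraction's processed signals as green triangles and median centring as purple diamonds. Scd1 and Me1 lie farthest right with loess and the processed signals, Scd1 and Pmvk with median centring, Elovl5 lies left of 0 under each, and Scap lies left of 0 with loess and the processed signals and right of 0 with median centring.

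The early sterol enzymes, from acetyl-CoA to farnesyl diphosphate, gave 5 of 7 genes higher, with a median of 0.20. Among all genes 26.3% were higher. Pmvk, phosphomevalonate kinase, had the largest ratio of the 18 sterol enzymes. Its normalised intensity was 18053 and 18139 in the vector samples and 35673 and 34257 in the ESlncRNA samples of replicates 1 and 2. Both ESlncRNA values were well above both vector values, a 1.93-fold rise (0.95 ± 0.046, SD, n = 2 arrays, adjusted p = 9.95e-06). The probe lies on chromosome 3 from 89272867 to 89272926 (mm9, NM_026784), and the other Pmvk probe gave 0.77 (adjusted p = 2.35e-05).

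Acat2, the cytosolic thiolase that joins acetyl-CoA units at the start of the route, rose from 241 and 228 to 339 and 322, or 1.41-fold (0.50 ± 0.0076). With the processed signals its log2 ratio was 1.03. Hmgcs1, the synthase that makes HMG-CoA, passed narrowly (0.26 and 0.09 on the arrays, adjusted p = 0.0395). It missed the threshold under 6 of the 9 other settings run on both arrays. Under those 6 its adjusted p ran from 0.0552 to 0.138, the latter with the authors' deposited values. With median centring it passed (0.99, adjusted p = 1.33e-30). Under that setting 62.9% of all genes rose, and those brighter than the median gene had a median of 0.61. Idi1, which isomerises isopentenyl diphosphate, rose 1.25-fold, and Mvd, the decarboxylase that forms it, 1.15-fold, though Mvd missed the threshold under 2 of the 9.

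Mvk, mevalonate kinase, was at 0.09 and 0.06 with its brighter probe (adjusted p = 0.197). Its dimmer probe, which targets the same transcript closer to its start, rose (0.25 on both arrays, adjusted p = 0.00411). Fdps, farnesyl diphosphate synthase, was at 0.08 and -0.05 (adjusted p = 0.803), and its vector and ESlncRNA values overlapped. In order of step, Pmvk stood at 0.95 between neighbours at 0.08 (Mvk) and 0.20 (Mvd).

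The later enzymes, from squalene to cholesterol, gave 10 of 11 genes higher (26.3% of all genes), with a median of 0.32. Lss, which closes squalene epoxide into lanosterol, had 2217 and 2023 in the vector and 3528 and 3162 in the ESlncRNA samples. Both ESlncRNA values were higher, 1.58-fold (0.66 ± 0.018, adjusted p = 5.02e-05, probe on chromosome 10 from 76015992 to 76016051, mm9). Cyp51, the lanosterol demethylase, had 1595 and 1903 in the vector and 2478 and 2989 in the ESlncRNA samples. It was 1.56-fold higher (0.64 ± 0.011, adjusted p = 5.44e-05, probe on chromosome 5 from 4081471 to 4081530, mm9).

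Fdft1, squalene synthase, which takes farnesyl diphosphate into the sterol branch, rose 1.41-fold (0.47 and 0.52 on the arrays). Its probe spans 4241 bases of chromosome 14 and so crosses a splice junction, while its other probe was too dim to be kept. Sqle, squalene epoxidase and a known control point of the route, rose 1.19-fold (0.31 and 0.19) and missed the threshold under 2 of the 9 other settings. Tm7sf2, a sterol reductase, rose 1.23-fold. Sc4mol, the methyl sterol oxidase now named Msmo1, rose 1.25-fold.

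Nsdhl, the dehydrogenase of the same demethylation complex, rose 1.14-fold and missed the threshold under 3 of the 9, while Hsd17b7, its ketoreductase, did not pass (0.08 and 0.11, adjusted p = 0.120). Ebp, the sterol isomerase, rose 1.11-fold (0.13 and 0.17, adjusted p = 0.0306), although its vector and ESlncRNA values overlapped between arrays and the call was lost under 5 of the 9 (adjusted p up to 0.220). Sc5d, a sterol desaturase, rose 1.31-fold. Dhcr7, the reductase of the last step to cholesterol, rose 1.26-fold (0.35 and 0.32). Tm7sf2, Nsdhl and Hsd17b7 had a further probe each, at 0.17, 0.14 and 0.11.

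The promoters of sterol enzymes are shown because most of those found hold the letters of a known promoter element. Whether these letters bear on the ratios was not tested. SREBP is known to act beside NF-Y, a factor that binds CCAAT. RefSeq windows from 250 bases before to 50 bases after the gene start (GRCm38.p6) were found for 28 of the 35 genes, some with several starts. Fdps, Fdft1, Sqle, Stard4, Scd1, Scd2 and Fads1 had no window and are left out of the motif counts. CCAAT or its complement ATTGG was present in a window of 14 of the 15 sterol enzymes found, 6 of the 9 fatty acid enzymes and 3 of the 4 regulators. A gene with several starts has more windows in which to hold it. By window it was in 14 of 18 sterol windows (77.8%) and in 24 of the 36 windows found (66.7%). Among all 32851 windows of this length the share was 37.4%. The sterol element TCACNCCAC, on either strand, was in 1 window, that of Hmgcs1, against 1.24% of all windows. The E-box CACGTG was in 7 of 36 windows (19.4%) against 7.15% of all windows, at 6 distinct positions in 6 genes, since the windows of Scap overlap and hold the same match. Capitals below mark CCAAT or ATTGG and, in Hmgcs1, TCACCCCAC. Hmgcs1 is shown for having both elements, and Pmvk (the first of 2 starts), Lss and Cyp51 for the largest rises among the sterol enzymes.
Hmgcs1 promoter, chr13:119690101-119690400, forward strand: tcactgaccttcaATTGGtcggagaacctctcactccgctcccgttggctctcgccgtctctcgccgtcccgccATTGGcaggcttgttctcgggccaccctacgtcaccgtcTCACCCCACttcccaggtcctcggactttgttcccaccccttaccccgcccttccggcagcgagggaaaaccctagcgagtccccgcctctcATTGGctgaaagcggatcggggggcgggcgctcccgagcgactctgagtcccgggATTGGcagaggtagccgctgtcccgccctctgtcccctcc
Pmvk promoter, chr3:89454291-89454590, forward strand: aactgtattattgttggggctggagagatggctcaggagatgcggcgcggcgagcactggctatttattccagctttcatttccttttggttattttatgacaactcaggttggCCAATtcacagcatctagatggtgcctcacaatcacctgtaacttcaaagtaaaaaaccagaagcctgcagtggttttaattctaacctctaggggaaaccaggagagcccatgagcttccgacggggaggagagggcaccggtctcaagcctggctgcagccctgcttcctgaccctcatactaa
Lss promoter, chr10:76531355-76531654, forward strand: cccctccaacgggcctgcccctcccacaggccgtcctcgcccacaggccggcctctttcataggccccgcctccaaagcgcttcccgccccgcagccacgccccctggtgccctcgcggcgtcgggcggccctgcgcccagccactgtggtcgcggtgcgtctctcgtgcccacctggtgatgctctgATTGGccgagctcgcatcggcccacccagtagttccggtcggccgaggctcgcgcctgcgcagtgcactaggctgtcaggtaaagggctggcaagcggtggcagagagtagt
Cyp51 promoter, chr5:4104648-4104947, reverse strand: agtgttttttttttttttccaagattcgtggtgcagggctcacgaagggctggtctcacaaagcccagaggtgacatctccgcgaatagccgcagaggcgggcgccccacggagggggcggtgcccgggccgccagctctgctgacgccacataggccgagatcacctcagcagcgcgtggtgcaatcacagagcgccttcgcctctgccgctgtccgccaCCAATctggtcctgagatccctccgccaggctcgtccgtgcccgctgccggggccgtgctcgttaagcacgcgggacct

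Hmgcs1, with 4 CCAAT elements and the sterol element, was at 0.17. Pmvk, Lss and Cyp51, with 1 CCAAT element in each window shown, were at 0.95, 0.66 and 0.64. Hmgcs1 was picked for its elements and the others for their rises, so these genes cannot relate the number of elements to the ratio. The window of the other Pmvk start held no CCAAT element, and which start these cells use was not tested. The 23 genes with the CCAAT letters had a median of 0.30 (17 rose, 1 fell), and the 5 without had 0.26 (4 rose, 1 fell). A match of letters is a description and does not show that a factor binds there. The array measured no binding.

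**Figure D3:**
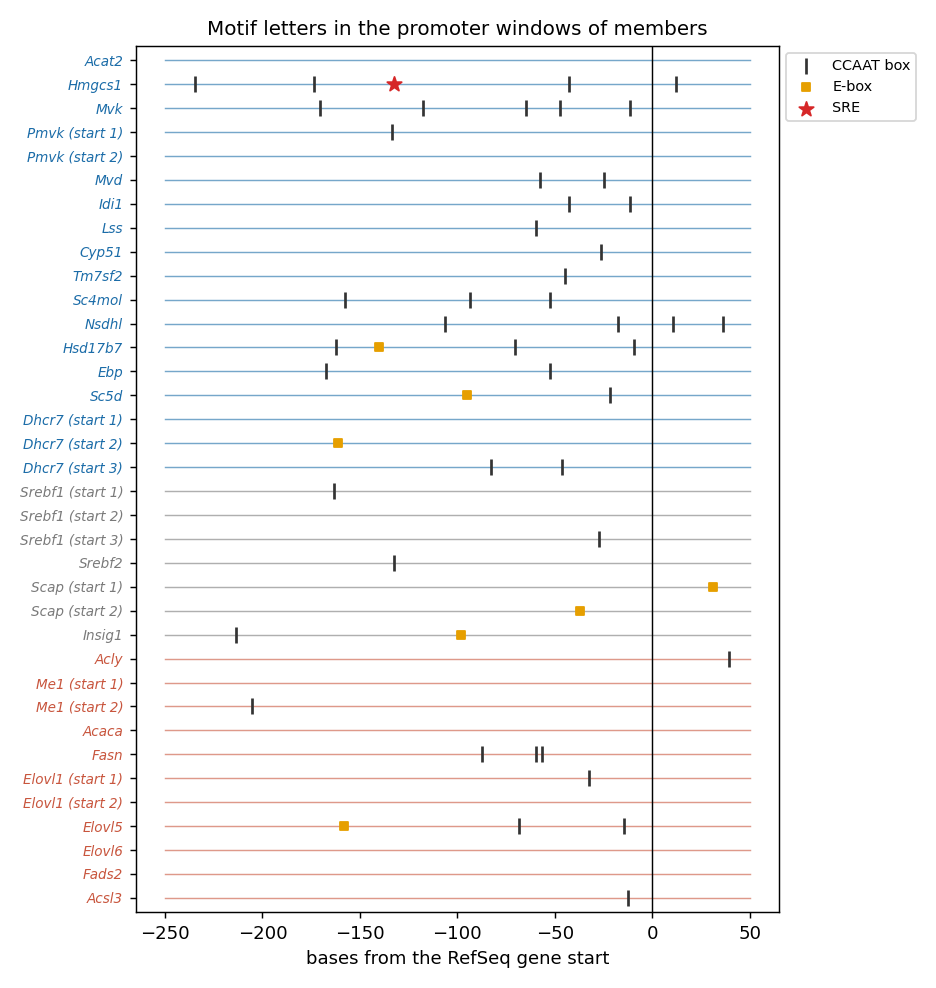
Positions of the CCAAT box, the E-box and the sterol element (SRE) in the 300 base windows of 28 genes, as bases from the RefSeq gene start, with a row for each start and the row names coloured blue for sterol enzymes, grey for regulators and red for fatty acid enzymes. CCAAT marks stand in 14 of the 18 sterol windows, and the single sterol element lies in the Hmgcs1 window.

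Among the 5 regulators and transporters, 3 rose, 1 fell and 1 did not pass, where 26.3% of all genes rose and 36.8% fell. Their median was 0.19 with loess and 0.54 with the processed signals. Srebf1, which encodes SREBP-1, had 224 and 227 in the vector and 295 and 340 in the ESlncRNA samples. It rose 1.40-fold (0.40 and 0.58 on the arrays, adjusted p = 6.06e-04), and was at 0.89 with the processed signals. Srebf2, which encodes SREBP-2, was at 0.05 on both arrays (adjusted p = 0.375), and its other probe was at -0.08 (adjusted p = 0.201). Scap, the escort of SREBP to the Golgi, fell by 0.21 on the log2 scale (-0.17 and -0.25, adjusted p = 0.0115). With median centring it was at 0.53, so its direction rests on the normalization. Its call as lower was lost under 5 of the 9 other settings, median centring among them. Insig1, the anchor that holds SCAP back and itself a known SREBP target, rose 1.14-fold (adjusted p = 0.0148), a call lost under 4 of the 9 other settings (adjusted p up to 0.0862). Stard4, a sterol carrier of the cytosol and a known SREBP target, rose 1.40-fold (0.49 and 0.48, adjusted p = 2.10e-04), and its other probe gave 0.41.

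Fatty acid genes held both ends of the list. Of 12 enzymes 8 rose, 1 fell and 3 did not pass, where 26.3% of all genes rose and 36.8% fell. Scd1, the stearoyl-CoA desaturase that makes oleate and palmitoleate, had 782 and 776 in the vector and 3681 and 3937 in the ESlncRNA samples. The groups were far apart, 4.89-fold (2.29 ± 0.077, adjusted p = 2.62e-07, probe on chromosome 19 from 44469387 to 44469446, mm9, NM_009127). Scd2, a close copy of Scd1 on the same chromosome, was 1.45-fold higher (0.59 and 0.48, adjusted p = 2.03e-04). Among the other copies, which were picked out after their values were seen, Scd3 was at 0.12 (adjusted p = 0.0662). Scd4 was at -0.19 (adjusted p = 0.0193) and was not well above background with ESlncRNA. Whether these probes share signal between copies was not tested.

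Me1, the malic enzyme that supplies NADPH for fatty acid synthesis, had 496 and 444 in the vector and 1084 and 1079 in the ESlncRNA samples. It rose 2.30-fold (1.204 ± 0.11, adjusted p = 6.09e-06, probe on chromosome 9 from 86475077 to 86475136, mm9). All 3 Me1 probes passed, from 0.90 to 1.23. Acly, which splits citrate into cytosolic acetyl-CoA, was at 0.10 on both arrays with its brighter probe (adjusted p = 0.101), and its dim probe rose (0.26, adjusted p = 0.00356). Acaca, the acetyl-CoA carboxylase that makes malonyl-CoA, passed narrowly (0.10 and 0.17, adjusted p = 0.0475), and its other probes, at 0.18 and -0.03, did not pass. Its call was lost under 6 of the 9 other settings (adjusted p from 0.0907 to 0.136). Fasn, the synthase that builds palmitate, rose 1.27-fold, with the arrays at 0.25 and 0.45, and missed the threshold with the authors' deposited values (adjusted p = 0.0672). The gap between its arrays, 0.19, was the widest among the 35 genes.

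Elongases differed in direction. Elovl5, which lengthens polyunsaturated fatty acids, had 2853 and 3073 in the vector and 1972 and 2128 in the ESlncRNA samples. Both ESlncRNA values were lower, by 1.45-fold (-0.53 ± 0.0024, adjusted p = 1.35e-04, probe on chromosome 9 from 77832205 to 77832264, mm9). With median centring it was at 0.01 (adjusted p = 0.891), against 0.34 for all genes. Elovl6, which lengthens palmitate to stearate and so makes the substrate of Scd1, rose by 0.26 (0.23 and 0.28). Elovl1, an elongase of very long chains, did not pass (0.06 and 0.17, adjusted p = 0.0984), and its other probe was at -0.04.

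Fads2, the first desaturase of the polyunsaturated route, rose 1.31-fold (0.39 and 0.40, adjusted p = 5.54e-04), with its other probe at 0.38. Fads1, the desaturase that follows it and the neighbour of Fads2 in the genome, was at 0.04 and 0.11 (adjusted p = 0.215). Acsl3, an acyl-CoA synthetase of lipid droplets, rose 1.25-fold (0.37 and 0.28). By kind of enzyme, 3 of 4 desaturases, 1 of 3 elongases and 3 of the 4 genes of palmitate synthesis and its supply (Acly, Me1, Acaca, Fasn) rose. Of all genes 26.3% rose, and groups this small were not tested against each other.

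**Figure D4:**
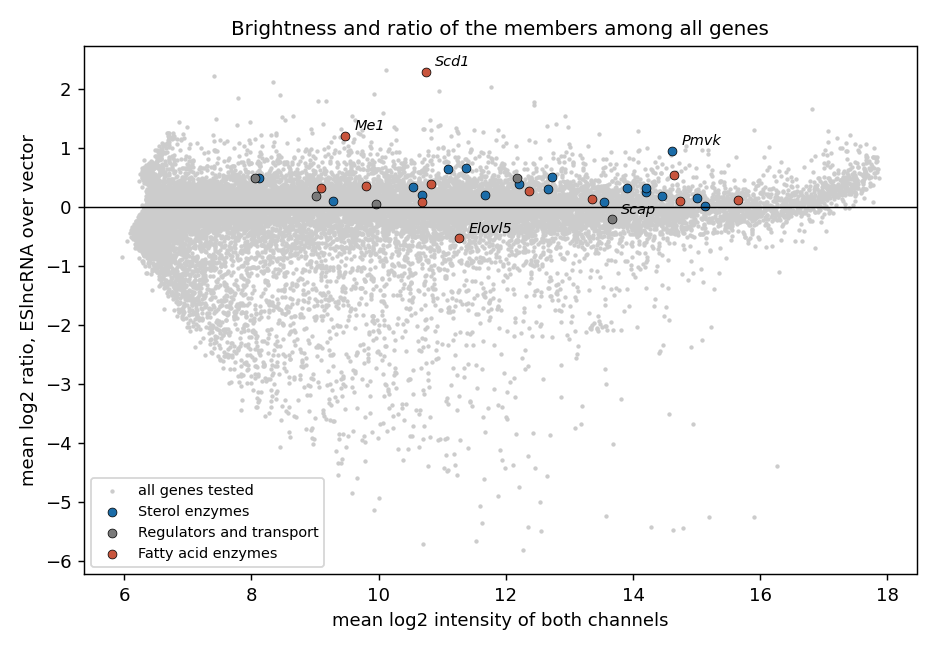
Mean log2 ratio of ESlncRNA over vector against mean log2 intensity of both channels, with all 19891 genes tested in grey and the 35 genes in colour. The members lie toward the bright side, 31 of 35 above the median gene and none below percentile 38.6, Scd1 lies near the upper edge of the cloud, and the members run from -0.53 to 2.29, while the lowest gene tested is at -5.81.

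The sterol genes outside the 35 moved in both directions. Of 6 other genes of sterol synthesis and SREBP processing 1 rose, 3 fell and 2 did not pass. Mbtps1, a protease that cuts SREBP, was at -0.22 (-0.26 and -0.17 on the arrays, adjusted p = 0.00998), and was called higher with median centring (0.49). When its probes were averaged it was at -0.076 and did not pass (adjusted p = 0.172). It also missed the threshold with the processed signals, without the replicate block and with normexp offset 0 (adjusted p from 0.0508 to 0.139). Of 15 genes of sterol uptake, storage and efflux tested, 1 rose and 11 fell, with a median of -0.42. Among all genes 26.3% rose and 36.8% fell. Soat1, which stores cholesterol as esters, was at least 3.53-fold lower (adjusted p = 4.69e-07), as its probe was not well above background with ESlncRNA. Apoe, an apolipoprotein of macrophages and hepatocytes, was 3.42-fold lower, and Lrp1, a receptor of apolipoprotein E, 3.09-fold lower (-1.63, and -2.55 with the processed signals).

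Of 24 other genes of fatty acid synthesis tested, 7 rose and 7 fell, with a median of -0.01, shares near the 26.3% and 36.8% of all genes. Acsl6, an acyl-CoA synthetase of erythroid cells, rose 2.70-fold (1.31 and 1.55). Its log2 ratio ranged from 0.84, when its probes were averaged, to 2.34 with the processed signals. Elovl7 was 2.94-fold lower and Idh1, the cytosolic isocitrate dehydrogenase that makes NADPH, 1.71-fold lower.

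Cell markers moved in the same RNA. Of 12 erythroid markers, all tested, 9 rose and 0 fell, where 26.3% of all genes rose and 36.8% fell. Slc4a1 was at -0.45 and 1.48 on the arrays and Alas2 at -0.02 and 0.77, and neither passed. The summed normalised intensity of the 12 erythroid markers was 419331 to 497693 in the vector and 642152 to 732552 in the ESlncRNA samples. In these sums 3 globin probes made up 81.0% to 84.0%. All 12 granulocyte markers fell, and their sum was 1151430 to 1271900 in the vector and 44744 to 51036 in the ESlncRNA samples. Of 9 macrophage markers tested all fell (sum 17868 to 17909 and 5397 to 5785), with C1qa and Cd163 not above background. All 8 megakaryocyte markers fell (71027 to 76113 and 19327 to 20486). Of 11 hepatocyte markers 8 fell and 0 rose (8615 to 9451 and 3185 to 3319), with Apob not above background. Of 6 adipocyte markers, Adipoq, Plin1, Lep and Cidec were not above background, and the 2 tested fell. In these sorted populations fewer cells of a type and less RNA per cell cannot be told apart, and the part of these shifts in the lipid genes was not tested.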

How the data were processed

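The spots were quantified in Feature Extraction (version 10.1.1.1), as the headers record. Used as deposited were the intensities, that is the mean spot signal and the median local background of each channel, uncorrected, on an array whose probe coordinates are on mm9. An alternative took the deposited processed intensities, from which the software had subtracted background and dye bias per the file headers. The deposited log10 ratios served as a check of direction. They correlated with the ratio of processed signals at r = 0.985 and 0.992, and as both come from the same software this shows the direction only. With the main loess ratios they correlated at r = 0.778 and 0.803. The authors' deposited log2 values, made with limma per the submitters' processing notes, had medians of -0.02 and -0.01, and matched (r = 0.99996 on each array) a loess ratio of Cy5 over Cy3 without background correction, which gave their scale and direction.

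With limma 3.58.1 (R 4.3.3), normexp (offset 50) corrected the background and loess within arrays the dye bias, giving control and marked spots no weight. Spots of a probe were averaged. A probe was kept if either channel was well above background on each array, which left 26790 of 55681 probes, standing for 19891 names in the files. A limma fit with an intercept (1 residual and 5.27 prior degrees of freedom) tested the ratios, with Benjamini-Hochberg adjustment over all probes kept. Channel values are after loess and Aquantile. Folds written "at least" set the bright channel against the lowest signal well above background, and are open to dye bias. The ratio pairs the samples that share an array. The steps were tested on simulated data. Of the 35 genes, 34 matched RefSeq by the accession of their brightest probe, and Fads2 by that of its other probe.

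Median signals were 35.9 and 39.5 (vector) and 67.8 and 76.3 (ESlncRNA), and 0 spots were saturated. The number of arrays limits the precision. The members and lists were chosen with earlier results of these data known. All 35 members are named. Of each other list the 3 genes of largest ratio that passed are named, and others are marked where they occur; some genes counted in these lists are not reported here by name. Alternatives were other background corrections, normalizations, filters and probe rules, channels as separate samples, and each array alone.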

Additional observations from a re-analysis of the deposited data

How the results depend on the processing

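All 35 members were tested under each setting with 2 arrays. Median centring gave 12521 genes higher and 3639 lower, a median of all genes of 0.34, a sterol median of 0.997 and a fatty acid median of 0.89, with 0 fatty acid enzymes lower, 5 regulators higher and 0 lower. It turned Scap (0.53), Elovl5 (0.013) and Mbtps1 (0.49). The processed signals gave 4711 genes lower, a median of all genes of 0.11, a sterol median of 0.43, a fatty acid median of 0.42 and 0 regulators lower. The sterol median was 0.30 with the authors' deposited values and without background correction, and 0.28 when a gene's probes were averaged, which put Srebf2 at -0.013. The median of all genes was 0.0028 with no filter on background. Scap also missed the threshold with the authors' values and with normexp offset 0, which left 0 regulators lower. Without the replicate block, with 4 channel values as separate samples, 3450 genes were higher (17.3% of all genes, with 28.9% lower). There 11 sterol enzymes were still higher and 0 regulators were lower. With 1 array no test was possible, so members at least 1.2-fold from 1 were counted. The arrays alone gave 10 sterol, 5 to 7 fatty acid and 2 regulator genes higher and 0 regulators lower. The share of all genes that met this looser rule was not counted. The sterol median was 0.29 on both arrays, and the fatty acid median 0.24 to 0.28. Lss, Cyp51, Pmvk, Scd1 and Me1 passed as higher under every setting with 2 arrays. Causes were not tested.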

Other observations

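Genes that turn fatty acids into glycerolipids, which were outside the 35, moved in both directions, with 8 of 21 higher, 10 lower and a median of -0.03. These counts were not tested against the 26.3% of all genes that rose and the 36.8% that fell. Mogat2 and Dgat2, acyltransferases that make diacylglycerol and triacylglycerol, were 13.99-fold and 11.3-fold lower (-3.81 ± 0.10 and -3.50 ± 0.12, SD, n = 2 arrays). Both had similar ratios on the arrays, -3.88 and -3.74 for Mogat2 and -3.59 and -3.42 for Dgat2. The fold of Mogat2 depends on the background correction, since its ESlncRNA signal is low (105 and 102): its log2 ratio was -4.56 with normexp offset 0 and -4.66 with the processed signals. Agpat3, an acyltransferase of phosphatidic acid synthesis, was 2.60-fold higher (1.35 and 1.41).

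Among 21 genes of fatty acid oxidation and lipolysis 5 rose, 9 fell and 7 did not pass, with a median of -0.07. These shares lie near the 26.3% higher and 36.8% lower among all genes. Mgll, which splits monoacylglycerol, rose 2.29-fold (1.19 ± 0.13). Decr1, a reductase needed to oxidise unsaturated fatty acids, was 1.59-fold lower, and Acads, the short-chain acyl-CoA dehydrogenase, 1.45-fold lower. With median centring, Decr1 and Acads did not pass.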
